A study of Rattus norvegicus with 12 samples.

Results

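The RANKL and Wnt paracrine signals of the mammary gland were followed through 10 genes on whole-genome rat arrays. They were the ligand genes Tnfsf11, Wnt4 and Wnt5a, the receptor gene Tnfrsf11a, and 6 genes for secreted antagonists, Tnfrsf11b, Wif1, Sfrp1, Sfrp2, Sfrp4 and Dkk3. The genes were chosen by symbol, and all 10 were measured, by 18 of 31099 probe sets, among 14217 genes in all. Female Sprague-Dawley rats ate casein, the main protein of milk, or soy protein isolate from postnatal day 30, and their abdominal mammary glands were sampled. All rats of all groups were ovariectomized on day 50, then received 17β-estradiol (E2) from a mini-osmotic pump or vehicle for 14 days, and glands were taken on day 64. The 4 groups were casein with vehicle, casein plus E2, soy with vehicle and soy plus E2, with 3 arrays a group, each of a pool. The stated question is what soy protein and E2, separately and jointly, do to gene expression in the gland. How many rats made a pool, and whether pools of a group held different rats, is not given in the sources used here, so the p-values cover only pool-to-pool spread, which may be technical.

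RANKL, the product of Tnfsf11, is a cytokine that binds the receptor RANK (Tnfrsf11a) on neighbouring cells and activates NF-kappaB, while osteoprotegerin (Tnfrsf11b) is a soluble decoy that captures RANKL. Wnt proteins signal through Frizzled receptors, and Wnt4 is known as a progesterone-induced signal for side branching of the ducts. In the mouse gland, estrogen induces the progesterone receptor, and progesterone then induces RANKL and Wnt4 in hormone-sensing luminal cells. Wif1 and the secreted Frizzled-related proteins bind Wnts outside the cell, whereas Dkk3 is a divergent member of the Dickkopf family.

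Values were deposited on a log scale, read here as log2, and were centred on the median of each probe set, so they give differences between samples and no expression level. A value of 0 is the median over the 12 arrays, not absence of the transcript, and values of different genes cannot be ranked against each other. Casein plus E2 pools 2 and 3 were nearly identical (SD of their difference 0.163, against 0.302 or more in every other pair of arrays) and were averaged into 1 sample, so n = 2 there and n = 3 in the other groups. Casein pool 3 was high in liver transcripts (mean of 8 liver markers 6.08), and casein pool 2 and soy pool 2 were high in skeletal muscle transcripts (3.38 and 3.65). One label field names liver for all samples, but the source field names mammary gland. For 18 bacterial spike-in probe sets 6 arrays had a mean above 0: the 3 of casein, the 1st of casein plus E2, the 1st of soy and the 2nd of soy plus E2. The other 6 lay below 0. The classical estrogen target Pgr, the progesterone receptor gene, lay between -1.37 and -0.82 in the 6 vehicle samples and between 0.82 and 2.24 in the 5 E2 samples.

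Promoters of 5 of the 10 genes (Wnt4, Wnt5a, Tnfsf11, Wif1 and Sfrp2) were matched by symbol in RefSeq on GRCr8. The 250 bases before the start are shown for the ligand genes Wnt4 and Tnfsf11, which lie downstream of steroid hormones in the mouse, and for Wif1, whose change with E2 had opposite signs in the 2 diets. They lie at chr5:154797200-154797449, plus strand (Wnt4), chr15:60114480-60114729, minus strand (Tnfsf11), and chr7:58433329-58433578, plus strand (Wif1). Capitals mark GC boxes, the letters GGGCGG on either strand, and overlapping matches run together.
Wnt4: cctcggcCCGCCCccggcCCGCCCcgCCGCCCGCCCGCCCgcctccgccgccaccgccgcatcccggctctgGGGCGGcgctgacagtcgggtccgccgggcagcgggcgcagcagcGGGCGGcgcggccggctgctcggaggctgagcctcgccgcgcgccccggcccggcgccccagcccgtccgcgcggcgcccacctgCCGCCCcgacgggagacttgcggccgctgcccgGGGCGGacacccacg
Tnfsf11: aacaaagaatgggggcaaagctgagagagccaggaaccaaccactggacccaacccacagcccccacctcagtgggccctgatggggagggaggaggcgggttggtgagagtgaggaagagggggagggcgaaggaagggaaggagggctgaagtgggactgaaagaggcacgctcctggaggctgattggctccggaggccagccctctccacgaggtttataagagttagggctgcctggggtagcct
Wif1: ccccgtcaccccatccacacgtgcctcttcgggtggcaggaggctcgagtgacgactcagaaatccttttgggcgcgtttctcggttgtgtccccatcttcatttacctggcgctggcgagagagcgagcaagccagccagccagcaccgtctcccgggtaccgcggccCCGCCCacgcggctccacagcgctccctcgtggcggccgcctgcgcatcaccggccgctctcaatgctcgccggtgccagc
The Wnt4 window held 9 GC boxes and had a GC content of 86.4%, the Wif1 window held 1, and the Tnfsf11 window held 0, where 30.5% of 33469 RefSeq promoter windows of the same length held at least 1. None of the 3 windows held the sequence GGTCA, the core of an estrogen receptor site, on either strand, which 35.4% of all windows held. The Sfrp2 window held 1 and the Wnt5a window 0. The palindromic estrogen response element (GGTCA and its reverse complement spaced by 3 bases) was in 0.0239% of all windows, the palindromic progesterone and glucocorticoid response element in 0.373% and the TCF/LEF site CTTTGAT in 3.15%, and none of these was in any of the 5 windows. A palindromic match also counts as a match of its core. A missing match says only that these letters are not in this window.

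With E2 averaged over both diets, 2 of the 10 genes passed the test, Tnfrsf11a higher and Sfrp4 lower (limma, Benjamini-Hochberg adjusted p over 14217 genes under 0.05). In this comparison 12.2% of all genes passed, 6.73% higher and 5.51% lower. The median change of the 10 genes was 0.11 log2 units against 0.0042 for all genes. No member passed in the other 5 comparisons: E2 within casein-fed rats (2.43% of all genes passed, 1.48% higher and 0.95% lower), E2 within soy-fed rats (0.218%, 0.183% higher and 0.0352% lower), the interaction of diet and E2 (0%), soy without E2 (0%) and soy under E2 (0.00703%). At an unadjusted p under 0.05, limma gave 3, 4, 2, 3 and 2 members in these comparisons, where 19.6%, 20.6%, 6.53%, 10.4% and 5.1% of all genes had such a p, and 5 for E2 averaged over diets, where 29% had. Groups did not overlap for 5 members for E2 with casein (39.8% of all genes), 5 for E2 with soy (24.6%), 2 for E2 in both diets together (6.88%), 2 for soy without E2 (13.3%) and 3 for soy under E2 (23.3%).

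**Figure D1:**
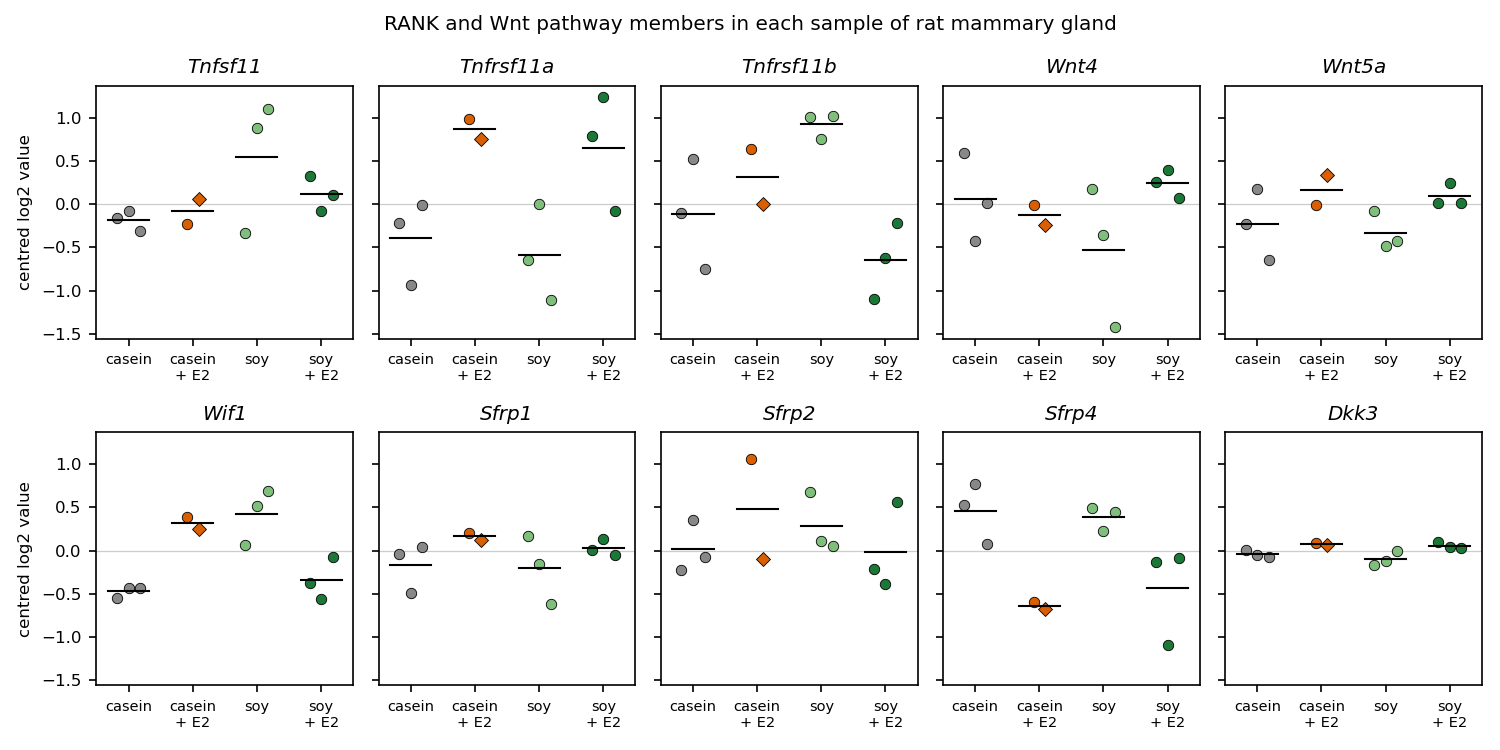
Centred log2 values of the 10 genes (1 panel each) in the 4 groups; each point is 1 pool, the diamond is the average of casein plus E2 pools 2 and 3, and the line is the group mean. Tnfrsf11a sits higher and Sfrp4 lower in both E2 groups, while Wif1 and Tnfrsf11b are highest in the soy pools without E2 among the soy-fed samples.

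The receptor gene Tnfrsf11a (RANK) rose with E2 averaged over diets, with near-equal estimates in casein-fed and soy-fed rats. It stood at -0.22, -0.93 and -0.0046 in casein pools 1, 2 and 3 and at 0.98 and 0.75 in the casein plus E2 samples. In soy pools 1, 2 and 3 it stood at -0.64, 0.0046 and -1.11, and in soy plus E2 pools 1, 2 and 3 at 0.79, 1.23 and -0.083. All samples with E2 except soy plus E2 pool 3 thus lay above all samples without it. The change averaged over diets was 1.24 ± 0.29 log2 units (± SE of the fit; limma adjusted p = 0.0263), and in an exact permutation test within diets (200 splits, two-sided, unadjusted) p = 0.01, where the smallest possible was 0.005. The change was 1.25 ± 0.43 in casein-fed and 1.23 ± 0.38 in soy-fed rats, and neither passed alone (limma adjusted p = 0.142 and 0.135). The difference between diets was -0.024 ± 0.57, with a 95% interval from -1.30 to 1.25, so a sizeable difference in either direction was compatible with the data. Between arrays on the same side of the spike-in split the difference with E2 was 1.37 in casein-fed rats above 0 (1 array against 3), 1.88 in soy-fed rats above 0 (1 against 1) and 0.91 in soy-fed rats below 0 (2 against 2), with no test.

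Markers of luminal epithelium, the inner cell layer of the ducts, moved with Tnfrsf11a. Of 11 luminal markers 6 rose and 0 fell with E2 averaged over diets (limma), with a median change of 1.01. Other cell types moved too: 3 of 9 basal markers rose, and 7 of 9 adipocyte and 8 of 10 fibroblast markers fell. In these 3 lists 0 markers passed in the other direction (limma). The mean of the luminal markers lay between -1.07 and -0.14 in casein, 0.48 and 0.57 in casein plus E2, -1.55 and -0.20 in soy, and 0.0019 and 0.51 in soy plus E2. Casein pool 2 and soy pool 3, the samples lowest in Tnfrsf11a, were also the lowest in luminal markers, and soy plus E2 pool 3 was the lowest of the E2 samples in both. The RNA is of whole glands, so fewer cells of a type and less RNA per cell cannot be told apart. The part of luminal or other cell content in the Tnfrsf11a change was not tested. The call for Tnfrsf11a did not hold without casein pool 2, casein plus E2 pool 1, soy plus E2 pool 1 or soy plus E2 pool 2 (limma adjusted p = 0.0536, 0.0978, 0.0647 and 0.0608, changes of 1.10 to 1.21). It did not hold either without both pools high in muscle transcripts (change 1.25, adjusted p = 0.0567).

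**Figure D2:**
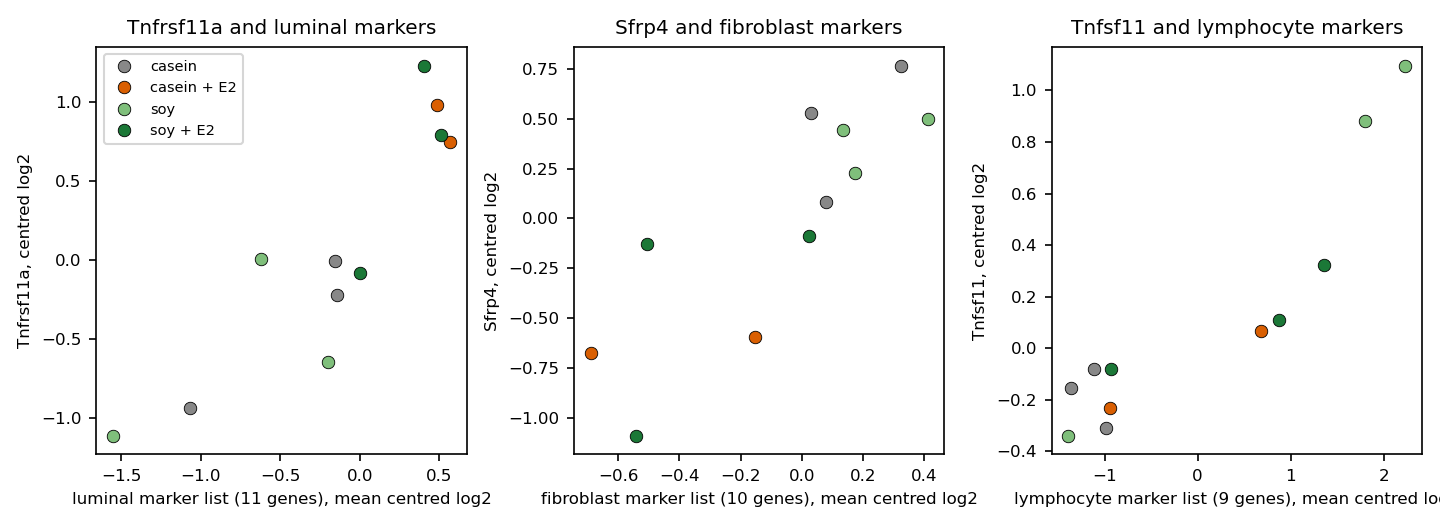
Centred log2 values of Tnfrsf11a, Sfrp4 and Tnfsf11 against the mean centred log2 value of luminal (11 genes), fibroblast (10 genes) and lymphocyte (9 genes) markers; each point is 1 of 11 samples, coloured by group. Tnfrsf11a is high where luminal markers are high, Sfrp4 is high where fibroblast markers are high, and the 2 soy pools highest in Tnfsf11 (0.88 and 1.10) are the highest in lymphocyte markers.

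Tnfsf11 (RANKL) was not changed past the test by E2 or by diet. It stood at -0.16, -0.083 and -0.31 in the casein pools, and at -0.23 and 0.065 in casein plus E2. In soy pools 1, 2 and 3 it stood at -0.34, 0.88 and 1.10, and in soy plus E2 pools 1, 2 and 3 at 0.32, -0.080 and 0.11. Soy pools 2 and 3 were the highest samples and soy pool 1 the lowest, so the soy group spanned all the others. The change with E2 was -0.16 ± 0.23 averaged over diets (95% interval -0.69 to 0.36; limma adjusted p = 0.691). The soy difference without E2 was 0.73 ± 0.31 (limma adjusted p = 0.472). It was called in 1 of 12 fits that left out 1 array, the fit without soy pool 1, at 1.17. Soy pool 1 was the only soy array above 0 for spike-ins, as all casein pools were. Between arrays on that side the soy difference was -0.16, from 1 array against 3, with no test. The 2 Tnfsf11 probe sets gave 0.73 and 0.72 for that difference.

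Lymphocyte markers differed along with Tnfsf11, which T cells also make, with a median of 2.17 for soy without E2 and 0 of 9 passed (limma). The mean of the 9 measured of 12 lymphocyte markers lay between -1.37 and -0.99 in casein, -0.95 and 0.68 in casein plus E2, -1.39 and 2.23 in soy, and -0.93 and 1.35 in soy plus E2. On the 6 arrays above 0 for spike-ins, all of which had lymphocyte means between -1.39 and -0.93, Tnfsf11 ranged only from -0.34 to -0.080 across all 4 groups. In the other 5 samples, where those means were 0.68 or more, it ranged from 0.065 to 1.10. The spike-in split and the lymphocyte means divided the samples in the same way, so they cannot be told apart for Tnfsf11. Whether either accounts for the Tnfsf11 values was not tested.

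Tnfrsf11b (osteoprotegerin), the decoy for RANKL, was highest in soy-fed rats without E2 and lowest in soy-fed rats with E2. It stood at 1.001, 0.75 and 1.01 in soy pools 1, 2 and 3, and at -1.10, -0.63 and -0.22 in the soy plus E2 pools. The casein pools stood at -0.11, 0.52 and -0.75 and the casein plus E2 samples at 0.63 and 0.00. The 3 soy pools lay above all other samples, and the 3 soy plus E2 pools were below every other sample except casein pool 3. The change with E2 in soy-fed rats was -1.57 ± 0.32 (limma adjusted p = 0.0766), ranked 132 by p among 14217 genes, and in casein-fed rats it was 0.43 ± 0.36 (limma adjusted p = 0.563). The difference of these changes was -1.996 ± 0.48 (limma adjusted p = 0.542), and none of the 3 passed. The change in soy-fed rats was called in 1 of 12 fits that left out 1 array. That fit was without soy plus E2 pool 3, the highest pool of its group, at -1.78. Between arrays on the same side of the spike-in split it was -1.63 above 0, from 1 array against 1, and -1.54 below 0, from 2 against 2, with no test.

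Soy against casein also gave differences of opposite sign for Tnfrsf11b, 1.03 ± 0.32 without E2 and -0.96 ± 0.36 under E2 (limma adjusted p = 0.419 and 0.897). The groups did not overlap in either comparison, which held for 13.3% of all genes without E2 and 23.3% under E2. Macrophage markers differed in the same direction in soy-fed rats, although 0 of 6 passed for E2 there (limma, median -0.74). Their mean lay between 0.36 and 0.56 in soy and between -0.49 and -0.095 in soy plus E2, against -0.40 to 0.40 in casein and -0.084 to 0.16 in casein plus E2. Fibroblast and adipocyte markers were also lower with E2 in soy-fed rats (medians -0.63 and -1.03), with 0 passed (limma). They were lower in casein-fed rats as well (-0.67 and -0.97), where Tnfrsf11b was at 0.43. The part of these marker lists in the Tnfrsf11b values was not tested. The difference Tnfsf11 minus Tnfrsf11b on 1 array, a relative measure of ligand against decoy, was 1.42, 0.55 and 0.33 in soy plus E2 and -1.34, 0.13 and 0.084 in soy. It was -0.050, -0.61 and 0.44 in casein and -0.86 and 0.065 in casein plus E2, so soy plus E2 had the highest group mean, but its lowest pool lay below casein pool 3.

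The ligand gene Wnt4 did not pass in any comparison and varied most among soy pools. It stood at 0.59, -0.43 and 0.014 in casein, -0.014 and -0.24 in casein plus E2, 0.18, -0.35 and -1.42 in soy, and 0.26, 0.39 and 0.072 in soy plus E2. Soy pool 3 was the lowest sample, and it was also the lowest for luminal (-1.55) and basal (-0.96) markers. The change with E2 was -0.19 ± 0.41 in casein-fed and 0.77 ± 0.37 in soy-fed rats, and averaged 0.29 ± 0.28 (95% interval -0.33 to 0.92; limma adjusted p = 0.53). Without soy pool 3 the soy value was 0.33. The casein value changed sign, to 0.081, without casein pool 1 and was -0.43 without casein pool 2.

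Wnt5a, a ligand known mainly for beta-catenin-independent signalling, had similar changes in both diets, 0.39 ± 0.22 with casein and 0.42 ± 0.20 with soy. It stood at -0.22, 0.17 and -0.64 in casein, -0.0082 and 0.33 in casein plus E2, -0.074, -0.48 and -0.43 in soy, and 0.011, 0.25 and 0.0082 in soy plus E2. Its 3 soy plus E2 pools lay above the 3 soy pools, while the casein groups overlapped. Groups did not overlap, in either direction, for 24.6% of all genes in the soy comparison. The average of 0.40 ± 0.15 did not pass (limma adjusted p = 0.11; exact permutation test within diets, unadjusted p = 0.04).

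**Figure D3:**
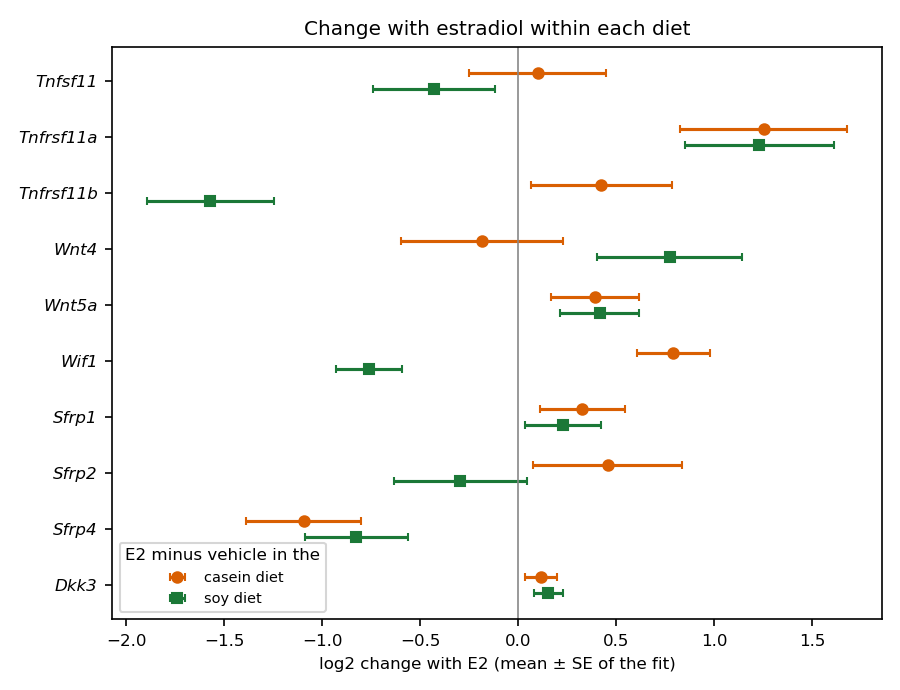
Log2 change with E2 (points, with the SE of the fit as bars) for each of the 10 genes in casein-fed (circles) and soy-fed rats (squares). Tnfrsf11a and Sfrp4 lay on the same side of 0 in both diets, whereas Wif1 lay at 0.79 with casein and -0.76 with soy, and Tnfrsf11b at 0.43 and -1.57.

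Wif1, whose product binds Wnt proteins, had changes with E2 of opposite sign in the 2 diets. It stood at -0.55, -0.44 and -0.43 in the casein pools and at 0.39 and 0.25 in the casein plus E2 samples. In soy-fed rats the order was turned, with 0.071, 0.52 and 0.69 in the soy pools and -0.38, -0.56 and -0.071 in the soy plus E2 pools. The groups did not overlap within either diet, as in 39.8% of all genes for casein and 24.6% for soy. The change with E2 was 0.79 ± 0.19 in casein-fed (limma adjusted p = 0.0598) and -0.76 ± 0.17 in soy-fed rats (limma adjusted p = 0.0827). The difference of these changes ranked 5 by p among 14217 genes, at -1.55 ± 0.25 (95% interval -2.11 to -0.99), but did not pass over all genes (limma adjusted p = 0.343). Averaged over diets the change was 0.016 ± 0.13.

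The diet differences of Wif1 mirrored this, at 0.90 ± 0.17 for soy without E2 (rank 11, limma adjusted p = 0.373) and -0.66 ± 0.19 for soy under E2 (limma adjusted p = 0.671). The groups did not overlap in either, as in 13.3% of all genes without E2 and 23.3% under E2. Wif1 was called for E2 in casein-fed rats without soy pool 1 or without soy plus E2 pool 3, for E2 in soy-fed rats without soy plus E2 pool 3, and for soy without E2 without soy pool 1. These calls came in 2, 1 and 1 of 12 fits that left out 1 array, and the other such fits gave no call for Wif1. On the 6 arrays above 0 for spike-ins, which were all low in lymphocyte markers, the mean of the casein pools was -0.47, casein plus E2 pool 1 stood at 0.39, soy pool 1 at 0.071 and soy plus E2 pool 2 at -0.56. The signs of all 4 differences were the same on those arrays, with 1 array in 3 of the 4 groups and no test. Over the 11 samples Wif1 had a Pearson correlation of 0.60 with the mean of the lymphocyte markers. Wif1 is on a single probe set, so no second probe set could be compared.

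Macrophage and lymphocyte markers had medians in the order of the Wif1 differences. The macrophage median was 0.012 for E2 with casein, -0.74 for E2 with soy, 0.58 for soy without E2, -0.35 for soy under E2 and -0.82 for the interaction, where 3 of 6 markers had an unadjusted p under 0.05 (limma). The lymphocyte median was 1.09, -0.42, 2.17 and -1.23 for E2 with casein, E2 with soy, soy without E2 and the interaction, but 0.72 for soy under E2, where Wif1 was at -0.66. In each of these comparisons 0 markers of either list passed (limma), and their part in the Wif1 values was not tested.

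**Figure D4:**
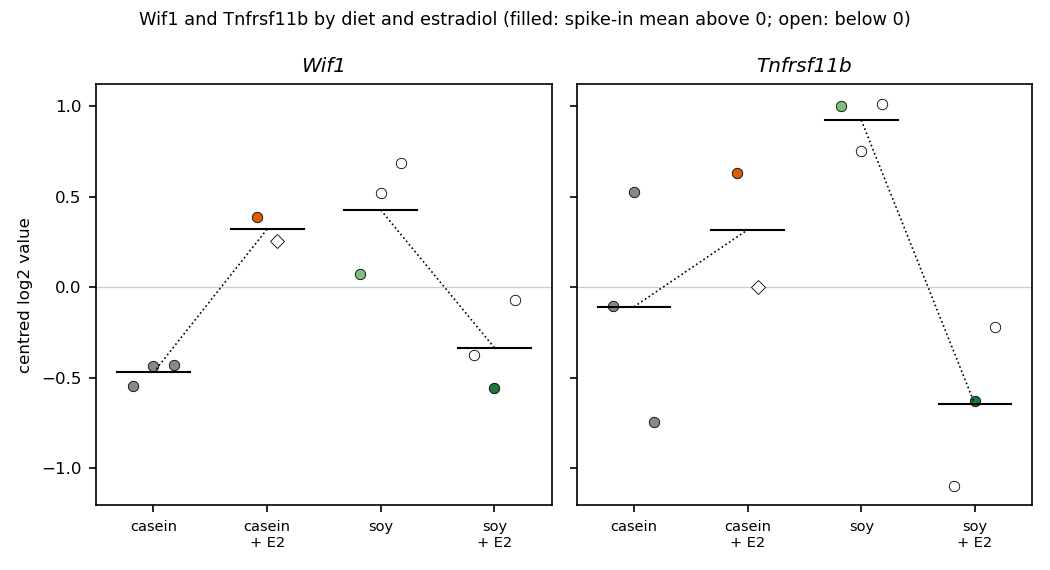
Centred log2 values of Wif1 and Tnfrsf11b by group; points are pools (diamond, averaged pair), filled where the spike-in mean was above 0 and open where below, solid lines are group means and dotted lines join vehicle to E2 within a diet. The dotted lines slope up in casein-fed and down in soy-fed rats for both genes, and no interaction passed the test over all genes.

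Sfrp4, a secreted Frizzled-related protein gene, fell with E2 on one of its 2 probe sets. As the mean of both it stood at 0.53, 0.77 and 0.082 in casein, -0.59 and -0.67 in casein plus E2, 0.50, 0.23 and 0.45 in soy, and -0.13, -1.09 and -0.086 in soy plus E2. All 5 samples with E2 lay below all 6 without, as groups did not overlap in 6.88% of all genes. The change averaged over diets was -0.96 ± 0.20 (limma adjusted p = 0.0189; exact permutation test within diets, unadjusted p = 0.005, the smallest possible). It was -1.09 ± 0.29 with casein and -0.83 ± 0.26 with soy (limma adjusted p = 0.0808 and 0.14). The soy value moved to -0.50 without soy plus E2 pool 2, the lowest sample. On the same side of the spike-in split it was -1.59 above 0 (1 array against 1) and -0.44 below 0 (2 against 2), and the casein value was -1.05 above 0 (1 against 3). The responding probe set alone changed by -1.98 ± 0.39 (limma adjusted p = 0.0184 over all probe sets) and ranged over 3.87 log2 units across arrays, whereas its other probe set was at 0.057 ± 0.077 (limma adjusted p = 0.695) and ranged over 0.34. The mean of both is thus smaller in size than the change on the responding probe set.

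Fibroblast and adipocyte markers fell along with Sfrp4. Of 10 fibroblast markers 8 fell and 0 rose (median -0.67), and of 9 adipocyte markers 7 fell and 0 rose (median -0.96), with E2 averaged over diets (limma). The fibroblast mean lay between 0.029 and 0.32 in casein, -0.69 and -0.15 in casein plus E2, 0.13 and 0.41 in soy, and -0.54 and 0.024 in soy plus E2. Their part in the Sfrp4 change was not tested. The Sfrp4 call did not hold without casein plus E2 pool 1 (change -0.98, limma adjusted p = 0.0683) or without the 2 pools high in muscle transcripts (change -0.92, adjusted p = 0.0689). It held without each other array in turn.

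**Figure D5:**
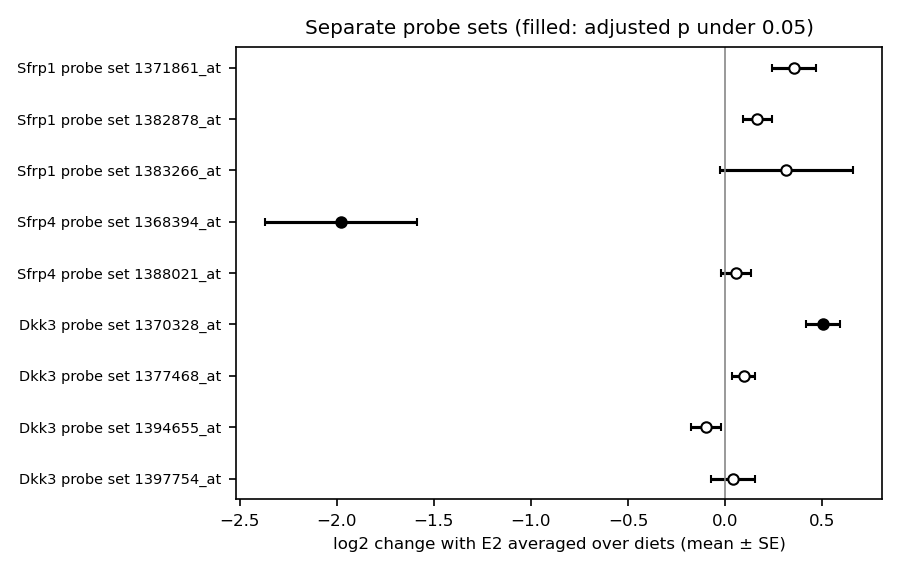
Log2 change with E2 averaged over diets (points, with the SE of the fit as bars) for each separate probe set of Sfrp1, Sfrp4 and Dkk3; filled points passed at an adjusted p under 0.05 over all probe sets. One probe set of Sfrp4 (-1.98) and 1 of Dkk3 (0.50) passed and the others of the same genes lay near 0.

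Dkk3 showed the same kind of split between probe sets. Its responding probe set stood between -0.44 and -0.11 on the 6 arrays without E2 and between 0.11 and 0.47 on the 6 with E2, and changed by 0.50 ± 0.089 (limma adjusted p = 0.0139 over all probe sets). The other 3 were at 0.096, -0.098 and 0.039 and did not pass. As the mean of 4 probe sets the Dkk3 difference was 0.14 ± 0.055 and did not pass (limma adjusted p = 0.138). All 5 E2 samples, between 0.031 and 0.095, lay above all 6 others, between -0.16 and 0.0076. Groups did not overlap, in either direction, for 6.88% of all genes in this comparison. The exact permutation test within diets gave an unadjusted p = 0.005, the smallest possible.

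Neither Sfrp1 nor Sfrp2 passed. Sfrp1, a Wnt antagonist, stood at -0.044, -0.49 and 0.047 in casein, 0.21 and 0.12 in casein plus E2, 0.16, -0.15 and -0.61 in soy, and 0.0061, 0.13 and -0.056 in soy plus E2, and its average change was 0.28 ± 0.15 (limma adjusted p = 0.245). Its lowest samples, casein pool 2 and soy pool 3, were those lowest in luminal markers. On 1 of its 3 probe sets, however, casein pool 3 was lowest (-0.27) and casein pool 2 stood at 0.0093. Sfrp2 stood at -0.22, 0.36 and -0.070 in casein, 1.05 and -0.096 in casein plus E2, 0.68, 0.12 and 0.053 in soy, and -0.22, -0.39 and 0.57 in soy plus E2. The spread within its groups was larger than its average change of 0.080 ± 0.25 (limma adjusted p = 0.872), and its 2 probe sets gave changes of 0.078 and 0.083.

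Among other genes of the Wnt pathway a minority passed with E2 averaged over diets (limma, over all genes), where 12.2% of all genes passed. The counts of the lists were not tested against that share. Of 17 measured receptor and R-spondin genes 2 rose, the R-spondin receptor gene Lgr4 (0.67 ± 0.12) and the co-receptor gene Ptk7 (1.15 ± 0.28), and 2 fell, the Frizzled receptor genes Fzd4 (-0.93 ± 0.22) and Fzd8 (-0.78 ± 0.21). Of 11 other Wnt ligand genes 0 passed, with 2 higher and 1 lower at an unadjusted p under 0.05. Of 8 other secreted inhibitors Sfrp5 fell (-0.56 ± 0.14) and 0 rose. For Sostdc1, of the same list, the difference between diets was 1.98 ± 0.43, opposite in sign to that of Wif1. It ranked 30 by p among all genes but did not pass (limma adjusted p = 0.477). Of 17 intracellular components the transcription factor gene Tcf7l2 rose (0.99 ± 0.25) and 0 fell. Its probe sets at 0.86, 1.02 and 1.21 passed alone and those at 0.65 and 1.22 did not (limma, over all probe sets). Of 10 target genes Ccnd1, encoding cyclin D1, rose (0.62 ± 0.18) and the feedback inhibitor gene Nkd1 fell (-0.33 ± 0.089). For Ccnd1 the probe sets at 0.66 and 0.78 passed alone and that at 0.41 did not. For Nkd1 the probe set at -0.37 passed alone and those at -0.16 and -0.45 did not (limma, over all probe sets). Axin2, a widely used readout of beta-catenin signalling, was at -0.67 ± 0.22 and did not pass (limma adjusted p = 0.0819). The medians of these lists lay between -0.12 and 0.12. Ptk7 and Tcf7l2 were lowest in casein pool 2 and soy pool 3, the samples lowest in luminal markers, and Fzd4 was lowest in soy plus E2 pool 1 and highest in casein pool 2, as were adipocyte markers (-1.35 and 0.88). The part of cell content in these changes was not tested.

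Of 19 measured genes of RANK signalling 2 rose and 0 fell with E2 averaged over diets (limma), where 12.2% of all genes passed. The 2 that rose were Elf5, a luminal transcription factor gene (1.98 ± 0.34), and Id2 (0.53 ± 0.13), both known to act in alveolar cells. The Id2 probe sets were at 0.68 and 0.38, and the lower did not pass alone (limma adjusted p = 0.113 over all probe sets). Id2 was called within casein-fed rats, at 0.91 ± 0.19 (limma adjusted p = 0.0406), and not within soy-fed rats, at 0.15 ± 0.17 (adjusted p = 0.663), and the difference between diets did not pass (-0.77 ± 0.25, adjusted p = 0.616). The NF-kappaB subunit genes Nfkb2 and Nfkb1 did not pass, at 0.20 ± 0.12 and -0.023 ± 0.15. The adaptor gene Traf6 averaged -0.083 ± 0.083, from 0.25 ± 0.12 with casein and -0.42 ± 0.11 with soy, and the difference of these, -0.68 ± 0.17, ranked 65 by p among all genes but did not pass (limma adjusted p = 0.543). Of 11 genes of hormone-sensing cells and their response 4 rose, Pgr (2.96 ± 0.26), Areg (3.82 ± 0.40), encoding an epidermal growth factor receptor ligand, Stat5a (1.12 ± 0.14) and Greb1 (1.45 ± 0.14, with its 2 probe sets at 0.12 and 2.79). Calca, a progesterone-responsive gene of the gland, was at 0.046 ± 0.072. Lgr4, Elf5, Pgr, Areg, Stat5a and Greb1 were called without each of the 12 arrays in turn. Without each array in turn, Fzd4 was called in 9 of 12 fits, Ptk7 in 8, Tcf7l2 in 7, Nkd1 in 6, Id2 in 5, and Fzd8, Sfrp5 and Ccnd1 in 4 each. For soy without E2 the 19 RANK signalling genes had a median of 0.27 against -0.0064 for all genes, in the comparison where lymphocyte markers had a median of 2.17, and 0 passed. None of the pathway genes named here passed for the interaction, for soy without E2 or for soy under E2.

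By Pearson correlation over the 11 samples, given as a description, the genes most like Tnfsf11 were Fcho1 (0.98), Arhgap17 (0.98) and Inpp5d (0.97). Those most like Wnt4 were Zfp618 (0.97), Dctn2 (0.97) and Nelfb (0.94), and those most like Wif1 were Casd1 (0.96), Hnrnpr (0.91) and Ccm2 (0.91). The samples share groups and pools, and the nearest of 14217 genes are high by choice. Among the members themselves the most opposed pair over the 11 samples was Tnfrsf11a and Sfrp4, at -0.91. For deviations from group means this pair was at -0.74, and Tnfsf11 and Sfrp1 were the most opposed, at -0.77.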

How the data were processed

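Per the labels' protocols, biotin-labelled targets from total RNA of the glands were run on Affymetrix arrays for rat. The deposited log2 values (log base read from their range) formed 1 table of 31099 probe sets on 12 arrays. The authors' values had a median of 0 per probe set. GCOS is named in the submitters' processing notes, and neither summarisation nor normalization is given in the sources used here. Centring leaves no level or detection call, so no dim probe set could be left out, and precision is limited by the number of arrays.

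Of the probe sets 20826 carried 1 gene, 20758 of them matched to the GRCr8 table by gene identifier, and 436 several, by the platform annotation. Probe sets of a gene were averaged, giving 14217 genes. Casein plus E2 pools 2 and 3 were averaged. Group means of 11 samples were fitted with limma 3.58.1 in R 4.3.3 (eBayes without trend, 7 residual degrees of freedom), and 6 contrasts were tested two-sided, with Benjamini-Hochberg adjustment over all genes and calls at an adjusted p under 0.05. The code was tested on simulated data. The members, gene lists and tests were chosen with earlier results of these data known, and the lists give counts and medians with no set test. Named genes were all members, up to 4 called genes per pathway list, Pgr, Areg, Calca and Axin2, and the 3 genes most like Wnt4, Tnfsf11 and Wif1. Nfkb1, Nfkb2, Traf6 and Sostdc1 were named after their values were seen. Alternatives were other normalizations, probe set choices, a filter on low spread, fewer groups, separate arrays, pool number as a block, array weights, the spike-in split and leaving out arrays.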

Additional observations from a re-analysis of the deposited data

Results flagged for a closer look

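The Wif1 change with E2 differed in sign between diets. All casein plus E2 samples lay above all casein pools, where 39.8% of all genes had no overlap in either direction. All soy plus E2 pools lay below all soy pools, where 24.6% of all genes had no overlap. The soy difference of Wif1 likewise had opposite signs without and under E2. Its groups did not overlap in either, as in 13.3% and 23.3% of all genes. Both sign differences are the same interaction, -1.55 ± 0.25 (95% interval -2.11 to -0.99). It did not pass over all genes (limma adjusted p = 0.343) and was called under 1 of 23 alternatives, array weights. Under all 23 it lay between -1.73 and -1.41.

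For Tnfrsf11b all soy pools lay above all casein pools without E2 and all soy plus E2 pools lay below the casein plus E2 samples. In these comparisons 13.3% and 23.3% of all genes had no overlap in either direction. The interaction was -1.996 ± 0.48 (limma adjusted p = 0.542) and did not pass in any of 23 alternatives, where it lay between -2.40 and -1.68. Groups of 2 or 3 samples are too small for a search for single outlying samples.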

How the results depend on the processing

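Each result was recomputed under up to 24 other settings, of which 12 left out 1 array and 2 were chosen after seeing the data. For E2 averaged over diets the count of 2 members called was 0 to 2 without 1 array, 0 without the 2 pools high in muscle transcripts and 0 without the 3 pools high in muscle or liver transcripts, settings with fewer samples. It was within 1.5 times of 2 in the other settings. For E2 in casein-fed rats the count was 0, but 1 with quantile normalization, 1 with only the groups of the contrast, 2 with 12 separate arrays, 2 with array weights and 0 to 1 without 1 array. With 12 separate arrays and the pool number as a replicate block it was 2. For E2 in soy-fed rats the count was 0, but 2 with 12 separate arrays, 4 with array weights and 0 to 3 without 1 array. For the interaction it was 0, and 1 with array weights. For soy without E2 it was 0, but 3 with array weights and 0 to 2 without 1 array. For soy under E2 it was 0 throughout. The cause of these differences was not tested, beyond fewer or more samples in the fit. The share of all genes called under each other setting is not given here. These counts are therefore no result about the members in particular. Deviations of pools with the same number had a median correlation of 0.031 over 18 pairs (-0.42 to 0.46). Over 36 other pairs it was 0.015 (-0.41 to 0.43). This spread is too wide to tell whether pool numbers pair animals, and no pairing is given in the sources used here. No called change reversed its sign, and 60 of 1414 values of members changed sign where neither value was called.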
